A study of Homo sapiens with 91 samples.

Results

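The 12 G1/S-high cells and the 12 G2/M-high cells were the ends of an order of 38 single HEK293T cells of 1 clone. HEK293T is a transformed human embryonic kidney line. The order was set by a score, the log2 ratio of the summed level of 10 transcripts known from the G1/S phases (MCM3, MCM5, MCM2, PCNA, CDC6, CDC45, EXO1, HELLS, CLSPN and CHAF1B) to that of 10 known from the G2/M phases (PLK1, CENPE, CENPF, TOP2A, MKI67, CCNB1, AURKA, TPX2, KIF11 and BUB1). The 12 cells of highest score are called G1/S-high, the 12 of lowest score G2/M-high, and the 14 others cells of middle score. RNA was measured by MATQ-seq, which copies the total RNA of a cell and tags each copied molecule with a random barcode, and levels are exonic barcodes scaled to the library total as CPM. No cell was treated, and the labels give neither a phase nor a DNA content. Another 10 libraries were averaged aliquots, pooled material split to the input of 1 cell, and they are given as values only. All 38 cells shared the clone, the medium and the method, and nothing says that they came from separate cultures. The p-values below therefore speak of the spread between cells of this clone. Of 91 samples described, 48 were analysed here.

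A dividing cell licenses and copies its DNA in G1 and S, and then builds a spindle and divides in mitosis. Many transcripts follow this order. E2F factors act on genes of DNA replication at the G1/S border. Genes of mitosis are held down by the repressor complex DREAM, and later in the cycle MYBL2 and FOXM1 join its MuvB core to activate them. Their promoters often hold a CHR element, which the MuvB core binds, and CCAAT boxes, which NF-Y binds.

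The score ran between 0.263 and 0.999 with a median of 0.740 in the G1/S-high cells, against -2.46 to -1.01 with a median of -1.62 in the G2/M-high cells. The cells of middle score lay between -0.960 and 0.142, and the averaged aliquots between -0.741 and -0.444. Cell 25, the last one inside the G1/S-high group, scored 0.263, and cell 5, the first one outside it, 0.142. At the other limit cell 2 was the first inside the G2/M-high group with -1.01, and cell 34 the last outside it with -0.960, so neither limit falls in a wide gap. The summed level of the 10 G1/S transcripts was 2166 CPM at the lowest, 3166 at the median and 3944 at the highest in G1/S-high cells, against 1171, 1514 and 1984 CPM in G2/M-high cells. For the 10 G2/M transcripts the same values were 1083, 2055 and 2555 CPM in G1/S-high cells, against 3658, 4734 and 6546 CPM in G2/M-high cells. The cells were chosen by these sums, so they are a description and carry no test.

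**Figure D1:**
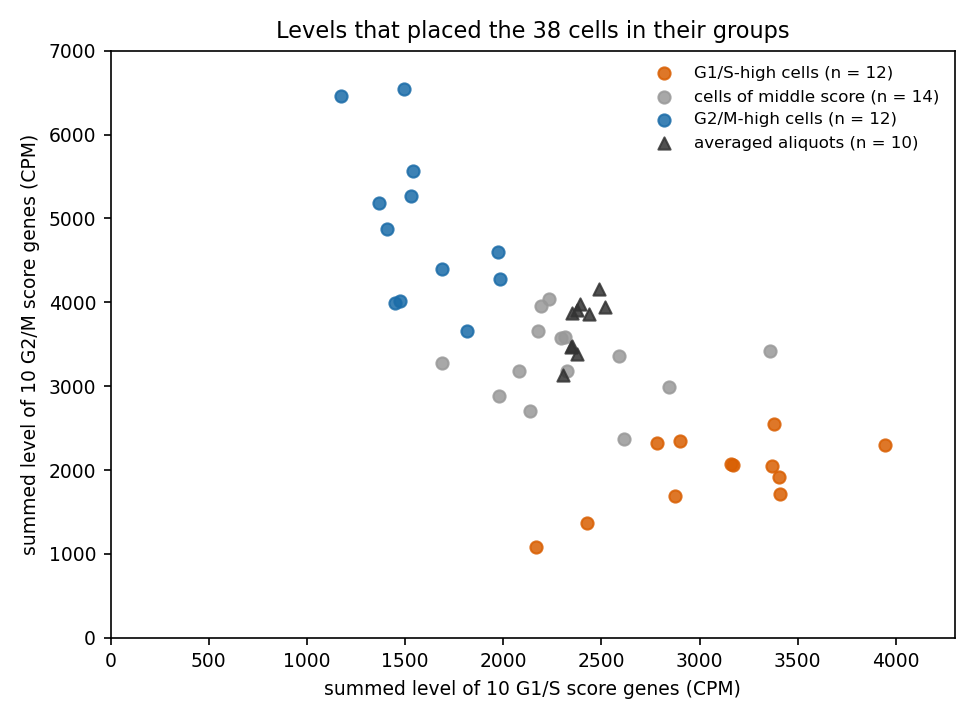
Summed level of the 10 G1/S score genes (x axis, CPM) against that of the 10 G2/M score genes (y axis, CPM), 1 point a library, for G1/S-high cells, cells of middle score, G2/M-high cells and averaged aliquots. The G1/S-high cells reach at most 2555 CPM on the y axis, the G2/M-high cells at least 3658 CPM, and the aliquots among the cells of middle score.

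The single members of the score were not equally divided between the groups. MCM5, a subunit of the replicative helicase, had 314, 483 and 616 CPM (lowest, median, highest) in G1/S-high cells and 85.5, 206 and 291 CPM in G2/M-high cells. PCNA, the sliding clamp of the DNA polymerases, had 125, 253 and 532 CPM in G1/S-high cells and 50.8, 102 and 171 CPM in G2/M-high cells. The groups were apart for MCM5 and overlapped for PCNA. PLK1, a kinase of mitotic entry, had 101, 149.9 and 416 CPM in G1/S-high cells and 453, 630.3 and 877 CPM in G2/M-high cells. CENPE, a kinesin of the kinetochore, had 54.6, 93.8 and 171 CPM in G1/S-high cells and 262, 345 and 518 CPM in G2/M-high cells. Both were apart, as were CENPF and AURKA, and the other 6 G2/M members overlapped. By the ratio of group means, KIF11, the motor that parts the spindle poles, was the least divided G2/M member (1.52-fold higher in G2/M-high cells) and CENPE the most (3.81-fold). Among the G1/S members the ratio ran from 1.61 for CLSPN, a checkpoint adaptor at the fork, to 2.58 for PCNA.

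The introns of the score genes took no part in the score and were counted apart from the exons. Over 12516 genes with a mean of at least 10 intronic CPM, edgeR's quasi-likelihood test called 25 (0.2%) at an adjusted p below 0.05. Of the 10 G1/S members, all 10 had a positive intronic log2 fold change (G1/S-high over G2/M-high), with a median of 0.90, and 1 was called. Of the 10 G2/M members, all 10 had a negative one, with a median of -1.18, and 1 was called. The median over all introns tested was 0.01. HELLS, a chromatin remodeller, had 114, 171 and 339 intronic CPM in G1/S-high cells and 55.5, 90.6 and 172 intronic CPM in G2/M-high cells (log2 fold change 1.05 ± 0.22 SE, edgeR adjusted p = 0.0256). PLK1 had 0, 9.06 and 28.5 intronic CPM in G1/S-high cells and 6.61, 32.4 and 104 intronic CPM in G2/M-high cells (-2.16 ± 0.49 SE, edgeR adjusted p = 0.037). Both overlapped between the groups. The markers PCNA (1.21 ± 0.43 SE, edgeR adjusted p = 0.246) and CENPE (-1.66 ± 0.42 SE, edgeR adjusted p = 0.0855) did not pass, and MCM5 had 0.65 ± 0.37 (SE, edgeR adjusted p = 0.527). An intron and an exon of a gene come from the same cell, and some intronic reads may come from the same molecules, so the 2 counts are not independent samples.

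Outside the score, 9959 genes had a mean of at least 10 CPM over the 38 cells and were tested on exonic barcodes. An unadjusted p below 0.05 was reached by 930 (9.34%), and at an adjusted p below 0.05 the test called 64 of them (0.643%): 23 were higher in G1/S-high cells (0.231%) and 41 were lower (0.412%). Among the 23 were the transcription factors E2F1 and E2F2, helicase subunits and DNA repair genes, and among the 41 were kinesins, spindle proteins, mitotic kinases and subunits of condensin. Of the 23 higher genes 16 stood in lists of cell cycle genes, and of the 41 lower genes 32 stood in a list, 31 of cell cycle genes and 1 of stress genes. The members of these lists were known cell cycle genes and the groups were ordered by other cell cycle genes of the same libraries, so the counts describe how far such transcripts moved together and are not independent evidence of the phase.

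The promoters of the genes of smallest p in each direction are printed to show the letters that differ between the sets. They are RefSeq sequences of the build GRCh38.p14 (the deposited counts were made on hg19), from 250 bases before to 50 bases after the start of the gene, on the strand of the gene. Letters of the kind bound by E2F factors were searched on both strands: the word TTCCCGC, then the word TTGGCGC, then the word TTCGCGC and last the word TTGCCGC. These E2F letters are in capitals in the first 3, which are higher in G1/S-high cells: DTL at chr1:212035498-212035797 on the plus strand, E2F1 at chr20:33686336-33686635 on the minus strand and UNG at chr12:109097347-109097646 on the plus strand. In UNG the letters overlap each other on both strands, and also a CCAAT box. CCAAT boxes were not marked in these 3 promoters, although DTL held 1, E2F1 3 and UNG 1.
DTL: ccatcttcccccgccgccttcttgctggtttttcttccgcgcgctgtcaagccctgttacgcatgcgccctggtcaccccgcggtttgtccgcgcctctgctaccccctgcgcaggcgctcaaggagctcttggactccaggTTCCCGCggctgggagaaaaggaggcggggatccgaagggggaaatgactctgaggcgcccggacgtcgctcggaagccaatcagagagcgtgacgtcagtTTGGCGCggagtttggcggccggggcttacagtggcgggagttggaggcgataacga
E2F1: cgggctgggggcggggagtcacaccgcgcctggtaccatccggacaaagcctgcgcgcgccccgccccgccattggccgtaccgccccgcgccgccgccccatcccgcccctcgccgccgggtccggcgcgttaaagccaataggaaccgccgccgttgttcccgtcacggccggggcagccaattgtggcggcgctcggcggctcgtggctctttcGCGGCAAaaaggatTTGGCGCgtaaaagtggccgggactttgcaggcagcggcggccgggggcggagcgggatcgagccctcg
UNG: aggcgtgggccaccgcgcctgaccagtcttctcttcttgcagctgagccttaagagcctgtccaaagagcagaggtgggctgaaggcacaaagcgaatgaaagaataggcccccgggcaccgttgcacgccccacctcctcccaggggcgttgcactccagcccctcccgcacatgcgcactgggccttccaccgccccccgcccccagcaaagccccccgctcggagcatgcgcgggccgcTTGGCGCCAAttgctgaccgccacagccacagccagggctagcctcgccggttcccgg

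In the next 3, which are lower in G1/S-high cells, capitals mark CHR letters (TTTGAA or TTCGAA on either strand) and CCAAT boxes (CCAAT on either strand). HMMR lies at chr5:163460382-163460681 on the plus strand, KIF20A at chr5:138178862-138179161 on the plus strand and ASPM at chr1:197146620-197146919 on the minus strand.
HMMR: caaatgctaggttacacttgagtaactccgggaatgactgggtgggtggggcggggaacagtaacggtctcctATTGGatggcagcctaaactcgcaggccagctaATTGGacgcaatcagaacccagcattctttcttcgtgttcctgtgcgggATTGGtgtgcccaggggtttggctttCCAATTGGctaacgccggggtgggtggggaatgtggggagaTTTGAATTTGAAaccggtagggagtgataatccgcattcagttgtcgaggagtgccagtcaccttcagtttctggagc
KIF20A: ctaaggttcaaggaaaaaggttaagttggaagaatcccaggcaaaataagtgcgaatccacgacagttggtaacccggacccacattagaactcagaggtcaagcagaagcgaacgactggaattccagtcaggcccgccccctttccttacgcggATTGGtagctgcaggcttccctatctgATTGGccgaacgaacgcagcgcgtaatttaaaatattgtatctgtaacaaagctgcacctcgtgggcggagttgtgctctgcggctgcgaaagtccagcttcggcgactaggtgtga
ASPM: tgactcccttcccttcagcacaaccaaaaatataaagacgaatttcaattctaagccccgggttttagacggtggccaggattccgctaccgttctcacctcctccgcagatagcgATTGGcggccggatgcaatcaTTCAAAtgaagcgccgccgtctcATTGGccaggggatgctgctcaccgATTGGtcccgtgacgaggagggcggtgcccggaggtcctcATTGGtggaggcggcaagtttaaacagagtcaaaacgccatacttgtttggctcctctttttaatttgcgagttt

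The HMMR promoter held CHR letters from positions -28 and -22 before the start, next to each other, and 5 CCAAT boxes. That of ASPM held CHR letters at -113, E2F letters at -15 (not in capitals) and 4 CCAAT boxes. That of KIF20A held 2 CCAAT boxes and no CHR letters in this window. E2F letters stood in 9 of the 16 promoters found for the genes higher in G1/S-high cells (56.2%) and in 6 of the 35 found for the lower genes (17.1%), beside 22.1% of 7507 tested protein-coding genes. CHR letters stood in 1 of 16 (6.25%) and 25 of 35 (71.4%), beside 10.6% of the tested genes. CCAAT boxes did not part the 2 sets, with 68.8% and 68.6%, beside 37.4%. A match of letters is a description of the sequence and shows no binding.

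Factors and regulators of the G1/S border held the 4 smallest p-values among the higher genes. Of 23 tested members 6 were higher and 0 lower, with a median log2 fold change of 0.55, beside 0.00 over all genes, and 5 had a negative value. The 23 and the median include CCNE2, which was not called. It reached the mean of 10 CPM only through the G1/S-high cells (9.19 CPM over the 26 others) and gives no support. E2F1, an activator of replication genes, had 73.4, 112 and 188 CPM in G1/S-high cells and 3.92, 25.1 and 42.5 CPM in G2/M-high cells. Its log2 fold change was 2.36 ± 0.25 (SE, edgeR adjusted p = 3.57e-09). It was the 1 tested gene outside the score (0.01%) for which every G1/S-high cell was above every G2/M-high cell. DTL, which targets the licensing factor CDT1 for degradation, had 117, 274 and 529 CPM in G1/S-high cells and 58.6, 79.3 and 132 CPM in G2/M-high cells (1.90 ± 0.20 SE, edgeR adjusted p = 3.16e-09). UNG, which removes uracil from DNA, had 54.6, 116 and 241 CPM in G1/S-high cells and 10.7, 35.9 and 60.0 CPM in G2/M-high cells (1.76 ± 0.24 SE, edgeR adjusted p = 3.31e-06). For DTL and UNG alike 11 of the 12 G1/S-high cells were above the highest G2/M-high cell. E2F2, a further activator, was uneven within the G1/S-high cells, with 7.79, 109.5 and 244 CPM there against 4.27, 18.4 and 31.9 CPM in G2/M-high cells (2.57 ± 0.38 SE, edgeR adjusted p = 3.64e-05). In 10 of the 12 G1/S-high cells it was above every G2/M-high cell. CASP8AP2, a factor of histone mRNA production (0.98 ± 0.19 SE, edgeR adjusted p = 0.00162), and WDR76 (1.25 ± 0.28 SE, edgeR adjusted p = 0.00937) were also higher, and the groups overlapped in both. With 8 cells a group CASP8AP2 did not pass.

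**Figure D2:**
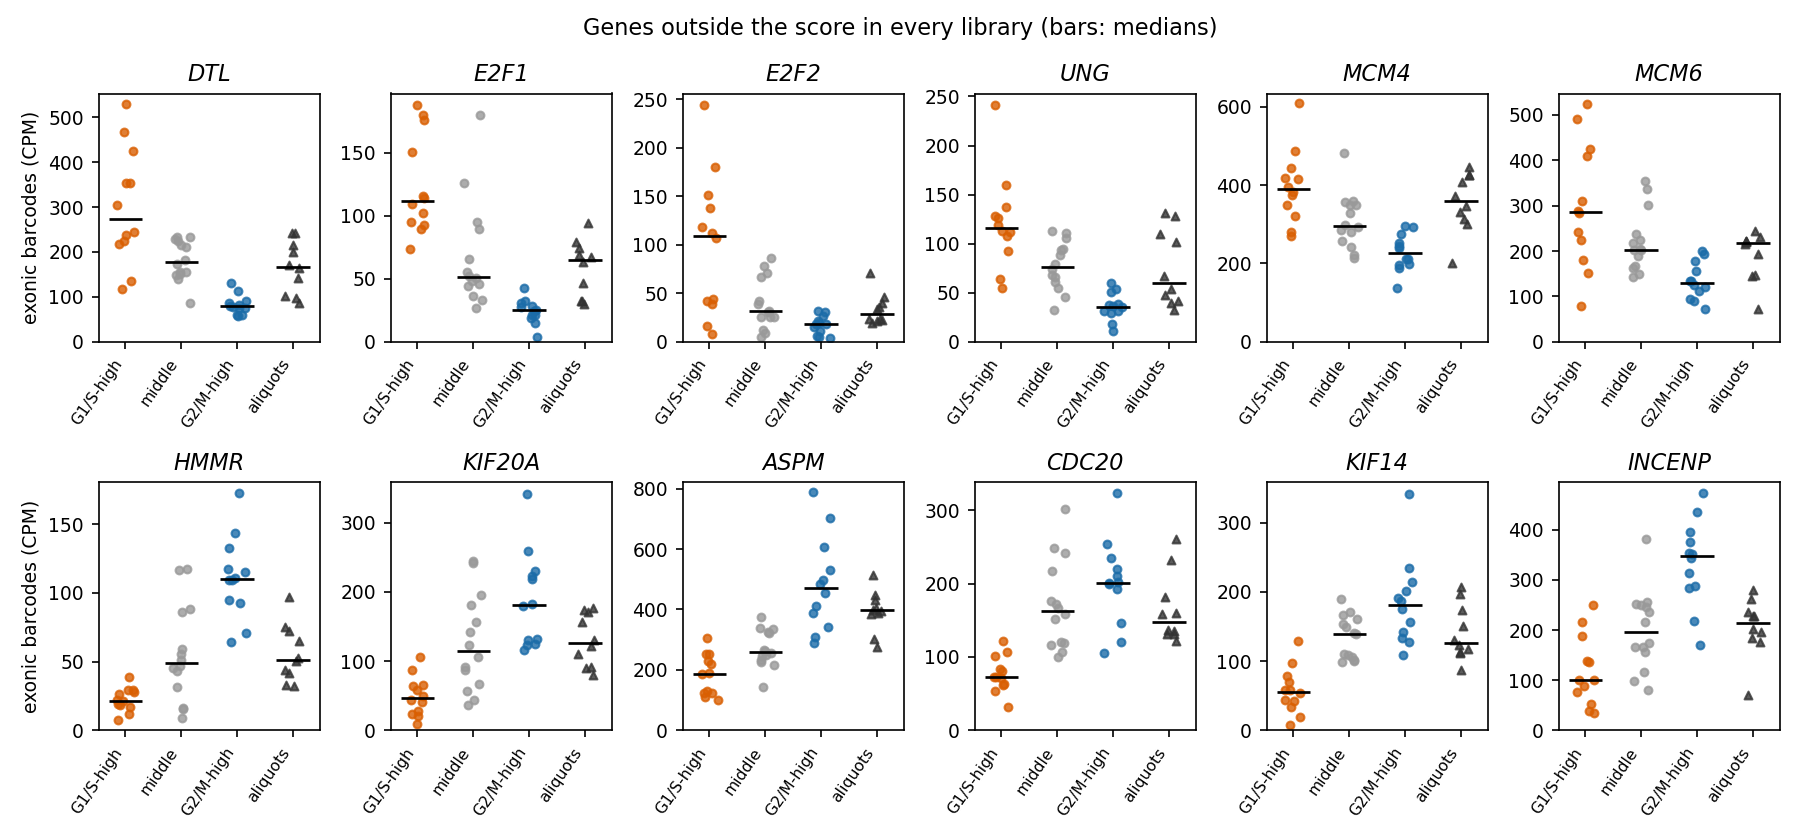
Exonic level (y axis, CPM) of 6 genes called higher (upper row) and 6 called lower (lower row) in G1/S-high cells, 1 point a library, by group; bars are medians. E2F1, HMMR and KIF20A are apart between the G1/S-high and the G2/M-high cells, and the medians of the middle cells lie between the 2 groups in each panel.

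Genes of origin licensing and of the helicase came next, with 4 of 20 tested members higher, 0 lower and a median log2 fold change of 0.38. MCM4 and MCM6 are subunits of the helicase that also holds MCM5. MCM4 had 270.3, 389 and 610.1 CPM in G1/S-high cells and 137, 226 and 295 CPM in G2/M-high cells (0.81 ± 0.14 SE, edgeR adjusted p = 0.00032). MCM6 had 77.9, 286 and 524 CPM in G1/S-high cells and 72.7, 129 and 199.6 CPM in G2/M-high cells (1.20 ± 0.21 SE, edgeR adjusted p = 0.000427). For MCM6 9 G1/S-high cells were above every G2/M-high cell, and the lowest of them lay near the lowest G2/M-high cell. MCM10, which helps to fire the helicase, was higher by 0.89 ± 0.17 (SE, edgeR adjusted p = 0.00128). GINS2, a subunit of the active helicase, was higher by 0.94 ± 0.18 (SE, edgeR adjusted p = 0.00128), but it overlaps GSE1 on the opposite strand and reads of the 2 cannot be told apart without strand. At the fork 2 of 28 members were higher and all 28 had a positive value (median 0.43): RPA2, which coats single-stranded DNA (153 CPM at the median of G1/S-high cells, 73.3 CPM at that of G2/M-high cells, 1.00 ± 0.20 SE, edgeR adjusted p = 0.00152), and TIPIN of the fork protection complex (0.99 ± 0.25 SE, edgeR adjusted p = 0.0399). The TIPIN call was lost in 14 of the 24 fits that left out 1 cell. POLD3, a subunit of polymerase delta, did not pass (0.67 ± 0.19 SE, edgeR adjusted p = 0.0963).

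Of the enzymes of nucleotide synthesis 1 of 15 was called. RRM2, the regulated subunit of ribonucleotide reductase, had 83.2, 207 and 342 CPM in G1/S-high cells and 85.9, 104 and 146 CPM in G2/M-high cells (0.91 ± 0.18 SE, edgeR adjusted p = 0.00187). The groups overlapped, and the lowest of these 24 cells was a G1/S-high one. TK1, thymidine kinase, had 145 CPM at the median of G1/S-high cells and 60.7 CPM at that of G2/M-high cells and did not pass (1.03 ± 0.28 SE, edgeR adjusted p = 0.069), nor did DUT, which breaks down dUTP (0.98 ± 0.29 SE, edgeR adjusted p = 0.13). Of 30 repair and recombination genes 3 were higher and 0 lower (median 0.42). BRCA1, which acts in homologous recombination, was among them (0.73 ± 0.17 SE, edgeR adjusted p = 0.0195). It had 125, 314 and 510.0 CPM in G1/S-high cells and 94.5, 194 and 262 CPM in G2/M-high cells, and 8 G1/S-high cells were above every G2/M-high cell. The call of BRCA1 was near the threshold and was lost without cell 36 (log2 fold change 0.64).

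Replication-dependent histone genes have mRNAs that lack a poly(A) tail and build up in S phase. Of 24 tested, 0 were called in edgeR's test, 0 had an unadjusted p below 0.05 and DESeq2 called 0. All 24 had a positive value, with a median of 0.34, but with 8 cells a group only 10 of 24 did and the median was -0.01. Their summed level was 2563, 6073 and 13327 CPM in G1/S-high cells and 1785, 4263 and 15123 CPM in G2/M-high cells. Cells of middle score spanned 2110 to 15438 CPM. A limit of 10000 CPM, chosen after the values were seen, was passed by 10 of the 38 cells: 3 G1/S-high, 4 of middle score and 3 G2/M-high. Counted from the highest score they held places from 8 to 32. The 7 cells of higher score reached at most 8129 CPM and the 6 of lower score at most 6473 CPM. These places depend on the limit chosen, both groups held such cells, and a link of histone level to a place in the order was not tested. HIST1H4H, a histone H4 gene, showed the same width, with 84.5, 340.2 and 946 CPM in G1/S-high cells and 78.3, 229 and 869 CPM in G2/M-high cells (0.51 ± 0.45 SE, edgeR adjusted p = 0.787). HIST4H4 (0.60 ± 0.41 SE, edgeR adjusted p = 0.688) and HIST2H2AB (0.70 ± 0.61 SE, edgeR adjusted p = 0.783) had like values. Histone genes are near-identical copies, so a read may have been counted for another copy, and 31 of 65 listed genes were found by name.

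Kinesins, spindle proteins and genes of cytokinesis formed the largest group of calls. Of 35 tested members 18 were lower in G1/S-high cells and 0 higher, all 35 had a negative value, and 34 had an unadjusted p below 0.05, against 4.34% of all tested genes in that direction. The median log2 fold change was -0.90. Their summed level was 1824, 3270 and 3725 CPM in G1/S-high cells and 4651, 5883 and 8393 CPM in G2/M-high cells, with no overlap. HMMR, a protein of spindle microtubules, had 7.79, 21.5 and 39.1 CPM in G1/S-high cells and 64.4, 110.4 and 172 CPM in G2/M-high cells (-2.23 ± 0.25 SE, edgeR adjusted p = 6.81e-09). KIF20A, a kinesin of cytokinesis, had 9.53, 46.8 and 107 CPM in G1/S-high cells and 115, 181 and 342 CPM in G2/M-high cells (-1.90 ± 0.24 SE, edgeR adjusted p = 3.93e-07). Both were apart between the groups, and with KPNA2, an importin that binds spindle factors, they were the 3 tested genes (0.0301%) for which every G1/S-high cell was below every G2/M-high cell. KPNA2 was named after its values were seen, with 127, 225 and 308 CPM in G1/S-high cells and 315, 358 and 489 CPM in G2/M-high cells (-0.75 ± 0.14 SE, edgeR adjusted p = 0.00124). KIF20A shares its place with BRD8 and CDC23 on the opposite strand, and BRD8 was itself called lower, so the 2 calls may share reads.

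ASPM, a protein of the spindle poles, had 101, 187 and 305 CPM in G1/S-high cells and 288, 470.1 and 788 CPM in G2/M-high cells (-1.34 ± 0.17 SE, edgeR adjusted p = 8.18e-07), and 11 of the 12 G1/S-high cells were below every G2/M-high cell. KIF14, a second kinesin of cytokinesis, had 7.79, 55.7 and 129 CPM in G1/S-high cells and 109, 181 and 342 CPM in G2/M-high cells (-1.65 ± 0.23 SE, edgeR adjusted p = 4.22e-06). In KIF14 too 11 cells were below. TROAP (-1.57 ± 0.25 SE, edgeR adjusted p = 7.05e-05), the microtubule-binding protein GTSE1 (-1.12 ± 0.19 SE, edgeR adjusted p = 0.000143) and DEPDC1 (-1.28 ± 0.22 SE, edgeR adjusted p = 0.000175) were lower as well, with overlapping groups.

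**Figure D3:**
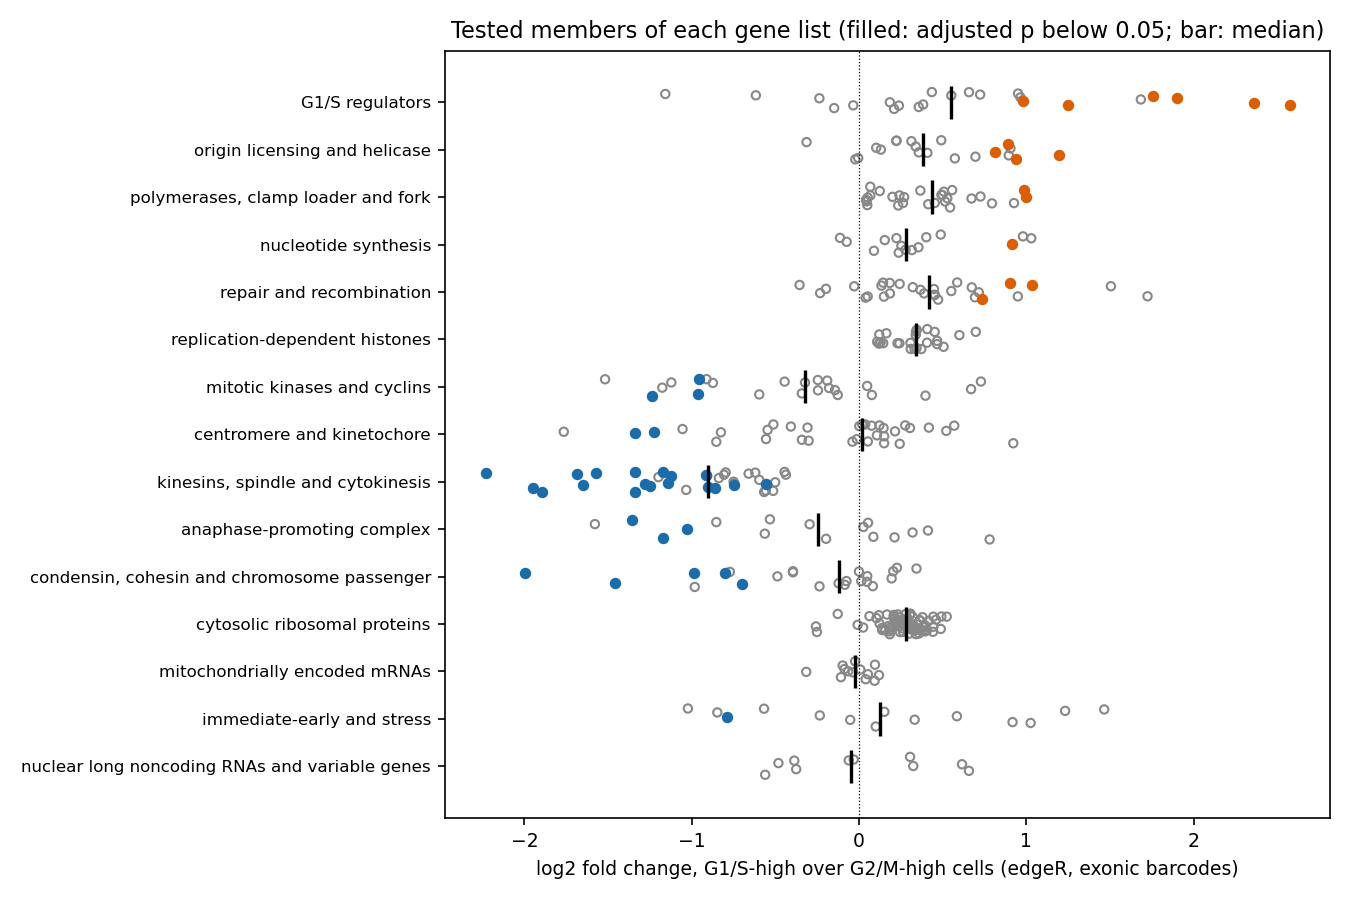
Log2 fold change (x axis, G1/S-high over G2/M-high cells, exonic barcodes, edgeR) of the tested members of 15 gene lists, 1 point a gene; filled points passed an adjusted p of 0.05 and bars are list medians. All 35 kinesin, spindle and cytokinesis genes lie left of 0, while the histone points lie between 0.11 and 0.70 with none filled.

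Regulators of mitosis were less uniform. Of 23 mitotic kinases and cyclins 3 were lower, 0 were higher and 5 had a positive value (median -0.32). AURKB, the kinase of the chromosome passenger complex, had 71.8, 122 and 215 CPM in G1/S-high cells and 175, 258 and 365 CPM in G2/M-high cells (-0.96 ± 0.17 SE, edgeR adjusted p = 0.000384), and 10 of the 12 G1/S-high cells were below every G2/M-high cell. BUB1B of the spindle checkpoint (-1.24 ± 0.27 SE, edgeR adjusted p = 0.00556) and CKS2, a partner of cyclin-dependent kinases (-0.95 ± 0.23 SE, edgeR adjusted p = 0.025), were lower with overlap, and the call of CKS2 was lost in 8 of the 24 fits that left out 1 cell. Of 16 genes of the anaphase-promoting complex and its partners 3 were lower. All 3 act with the complex rather than being core subunits: its activator CDC20, its ubiquitin-conjugating enzyme UBE2C and ESPL1, the separase set free by it. CDC20 had 31.2, 72.9 and 121 CPM in G1/S-high cells and 106, 201 and 324 CPM in G2/M-high cells (-1.36 ± 0.19 SE, edgeR adjusted p = 3.91e-06). ESPL1 was lower, at -1.03 ± 0.17 (SE, edgeR adjusted p = 7.25e-05) and UBE2C at -1.17 ± 0.22 (SE, edgeR adjusted p = 0.000742). The call of UBE2C was lost with 16 cells a group.

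Of 33 centromere and kinetochore genes 2 were lower and 0 higher, and the median of 0.02 was close to that of all genes. KNL1, the scaffold that recruits checkpoint proteins, had 50.7, 78.4 and 121 CPM in G1/S-high cells and 120.3, 189 and 293 CPM in G2/M-high cells (-1.23 ± 0.18 SE, edgeR adjusted p = 1.42e-05). SGO2, which guards centromeric cohesion, was lower, at -1.34 ± 0.26 (SE, edgeR adjusted p = 0.00123). DSN1, a kinetochore subunit, had the opposite sign and did not pass (0.92 ± 0.27 SE, edgeR adjusted p = 0.124). In the list of condensin, cohesin and chromosome passenger genes 5 of 23 were lower and 0 higher (median -0.12). INCENP, the scaffold that holds AURKB, had 33.8, 101 and 249 CPM in G1/S-high cells and 171, 348 and 473 CPM in G2/M-high cells (-1.46 ± 0.22 SE, edgeR adjusted p = 7.25e-05). CDCA3, which overlaps GNB3, had 0, 13.5 and 29.3 CPM in G1/S-high cells and 24.9, 61.0 and 98.3 CPM in G2/M-high cells (-2.00 ± 0.34 SE, edgeR adjusted p = 0.000146), and NCAPD2, a condensin subunit that overlaps MRPL51, was lower, at -0.70 ± 0.15 (SE, edgeR adjusted p = 0.00328).

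In all, 7 higher and 9 lower genes stood in no list and are named after their values were seen. Higher in G1/S-high cells were CDCA7, a partner of HELLS (257 CPM at the median of G1/S-high cells, 171 CPM at that of G2/M-high cells, 0.65 ± 0.15 SE, edgeR adjusted p = 0.0101), BEX3, the deubiquitinase USP37, KANK1, the cell-surface proteoglycan SDC1 and 2 identifiers without a symbol. Lower were the Ran GTPase activator RANGAP1, the DNA helicase PIF1, BRD8, DBF4B, IQGAP3, KCTD10 (which overlaps UBE3B), PIMREG, PATZ1 and the centriole protein ODF2. PIF1 had 0, 3.66 and 33.1 CPM in G1/S-high cells and 4.97, 63.6 and 200.4 CPM in G2/M-high cells (-2.92 ± 0.52 SE, edgeR adjusted p = 0.00124). RANGAP1 had 101, 212 and 318 CPM in G1/S-high cells and 266, 418 and 506 CPM in G2/M-high cells (-0.90 ± 0.15 SE, edgeR adjusted p = 0.000175). SDC1 reached the mean of 10 CPM needed for testing only through the G1/S-high cells (9.34 CPM over the 26 others), so its call is given no weight here; it had 0, 12.9 and 80.2 CPM in G1/S-high cells and 0, 0 and 12.5 CPM in G2/M-high cells.

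The 14 cells of middle score and the 10 aliquots entered no test. The mean of the middle cells lay between those of the 2 groups for all 23 higher and all 41 lower genes. The mean of the aliquots lay between them for 23 and 38, and AURKB, IQGAP3 and CKAP5 were the exceptions. Within the 14 middle cells the level followed the score in the same direction for 21 of the 23 higher genes, against 47.9% of all tested genes, and for 32 of the 41 lower genes, against 52.1%. These slopes are a description without a test. For E2F1 the median was 51.6 CPM in middle cells and 65.3 CPM in aliquots, and for HMMR 48.7 and 51.5 CPM.

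**Figure D4:**
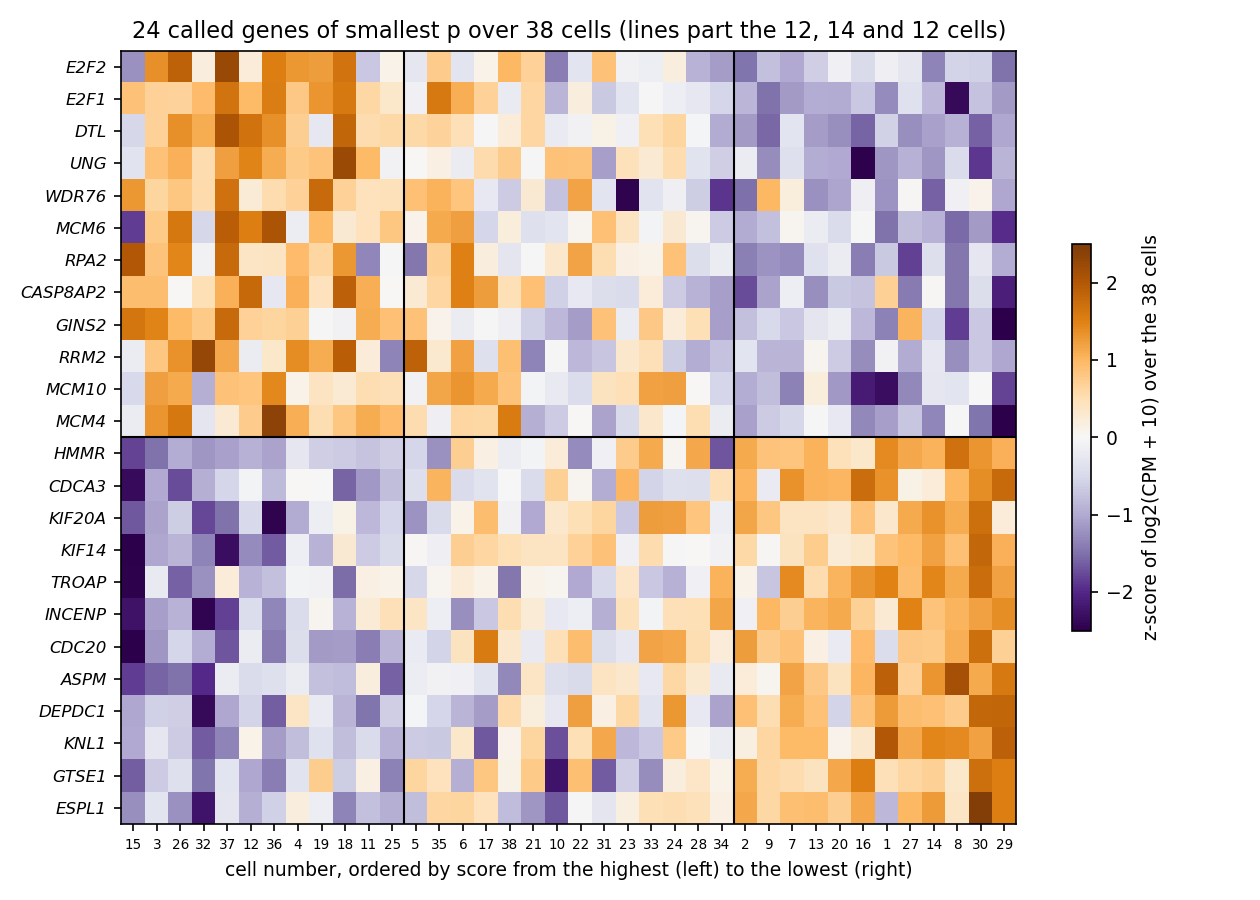
The called genes of smallest p with a mean of at least 20 CPM (rows, 12 higher above 12 lower) over the 38 cells (columns, by falling score), as z-scores of log2(CPM + 10) for each gene over the cells. Vertical lines part the 12 G1/S-high, 14 middle and 12 G2/M-high cells. The middle cells take values between the 2 ends, and single cells depart from their group in most rows.

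The introns of the called genes mostly went the way of their exons. The introns of SDC1 and HMMR averaged 10 CPM only through the group in which they are high. Over the 26 other cells they had 6.77 and 9.94 intronic CPM, so they had to differ and give no support. The counts that follow still include them: SDC1 is 1 of the 22, and HMMR is 1 of the 32 and 1 of the 3 called. Of the 23 higher genes 22 had a tested intron, and 21 of these had a positive value, 14 with an unadjusted p below 0.05 (6.92% of all introns in that direction) and 2 called. Of the 41 lower genes 32 had one, and all 32 were negative, 18 with an unadjusted p below 0.05 (4.37%) and 3 called. The exception was CDCA7. Over all introns 18 were higher (0.144%) and 7 lower (0.0559%). POLA1, the catalytic subunit of the polymerase that starts each DNA strand, had 576, 828 and 1523 intronic CPM in G1/S-high cells and 273, 384 and 467 intronic CPM in G2/M-high cells (1.20 ± 0.18 SE, edgeR adjusted p = 0.000335). It was the 1 intron (0.00799%) for which every G1/S-high cell was above every G2/M-high cell, while its exons did not pass (0.49, edgeR adjusted p = 0.348). The introns of E2F2 (2.72 ± 0.48 SE, edgeR adjusted p = 0.00552) and E2F1 (2.39 ± 0.43 SE, edgeR adjusted p = 0.00552) were higher too, and so were those of the noncoding RNA AC092422.1 (1.59 ± 0.29 SE, edgeR adjusted p = 0.00552) and of TOGARAM2 (2.38 ± 0.44 SE, edgeR adjusted p = 0.00807).

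Introns of HMMR had 0, 3.91 and 18.4 intronic CPM in G1/S-high cells and 9.92, 33.3 and 77.5 intronic CPM in G2/M-high cells, and no fold change is given for them because of the filter. HMMR-AS1, which overlaps HMMR on the opposite strand, was lower, at -2.24 ± 0.44 (SE, edgeR adjusted p = 0.0148), and reads of the 2 cannot be told apart. TOB2, of a family that slows cell growth, was lower, at -1.69 ± 0.34 (SE, edgeR adjusted p = 0.0189). G2E3, a ubiquitin ligase, was lower, at -1.18 ± 0.25 (SE, edgeR adjusted p = 0.0256), and so was BRD8, at -1.39 ± 0.30 (SE, edgeR adjusted p = 0.0256). BRD8 overlaps KIF20A on the opposite strand, so its intronic count may hold reads of KIF20A. With 8 cells a group 0 introns were called lower by edgeR, and 3 higher, so most of the intronic calls were not kept there. The call of G2E3 was lost without cell 13 (-1.12) or cell 29 (-1.13), and that of BRD8 without cell 7 (-1.36), 20 (-1.37) or 29 (-1.26).

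**Figure D5:**
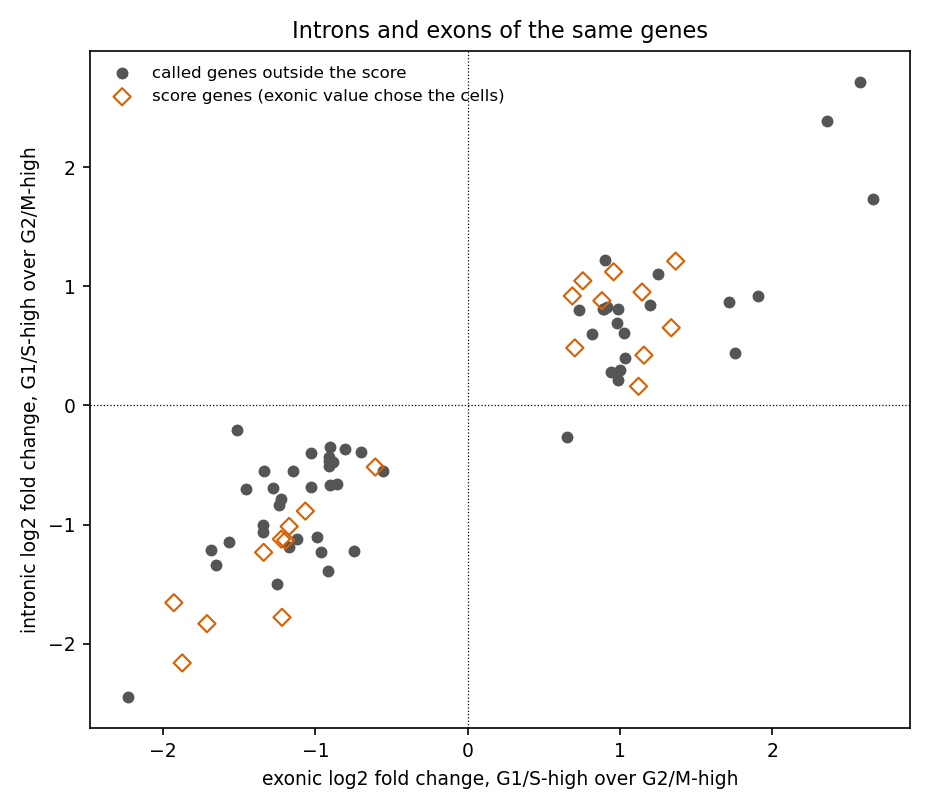
Intronic log2 fold change (y axis) against exonic log2 fold change (x axis), both G1/S-high over G2/M-high cells, 1 point a gene. Filled points are called genes outside the score with edgeR values on both axes; open diamonds are the 20 score genes, whose exonic value is the log2 ratio of group means. Of the points, 1 lies off the 2 quadrants of like sign, CDCA7.

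Genes of other programs held 1 call, that of DNAJB1. Of 70 genes of cytosolic ribosomal proteins 0 were called in edgeR's test and 1 in DESeq2's, while 66 had a positive value (50.2% over all genes) and 34 were higher at an unadjusted p below 0.05, against 5% of all tested genes in that direction. Their summed level was 32465, 39928 and 55894 CPM in G1/S-high cells and 24561, 35793 and 41990 CPM in G2/M-high cells, with overlap. RPS27A, a small-subunit protein made as a fusion with ubiquitin, had the smallest p, with 349, 451 and 1026 CPM in G1/S-high cells and 255, 353 and 507 CPM in G2/M-high cells (0.52 ± 0.15 SE, edgeR adjusted p = 0.108). RPLP2 did not pass either (0.49 ± 0.15 SE, edgeR adjusted p = 0.154). Of 13 mitochondrially encoded mRNAs 0 were called by edgeR or DESeq2 and 0 had an unadjusted p below 0.05 in edgeR's test. MT-CO1 (0.12), MT-CO3 (-0.10) and MT-ND3 (-0.32) of the respiratory chain lay closest to passing, and their edgeR adjusted p-values ran from 0.746 to 0.874. Of 14 tested immediate-early and stress genes 1 was lower, the heat shock co-chaperone DNAJB1 (-0.79 ± 0.19 SE, edgeR adjusted p = 0.0175), which overlaps TECR and lost its call without cell 30 (-0.73). JUN, an immediate-early factor, had 53.7, 165 and 639 CPM in G1/S-high cells and 53.5, 80.3 and 199 CPM in G2/M-high cells and did not pass (1.23 ± 0.35 SE, edgeR adjusted p = 0.145), nor did HSPA5, the chaperone of the endoplasmic reticulum (-0.57 ± 0.17 SE, edgeR adjusted p = 0.108).

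Of 10 nuclear long noncoding RNAs and genes listed as variable, edgeR called 0 and DESeq2 0. An unadjusted p below 0.05 in edgeR's test was reached by 3 of them, beside 9.34% of all tested genes. NEAT1, the scaffold RNA of paraspeckles, spread widely in both groups, with 534, 1310.2 and 5165 CPM in G1/S-high cells and 429, 2609 and 4352 CPM in G2/M-high cells (-0.39 ± 0.43 SE, edgeR adjusted p = 0.841). MALAT1 of nuclear speckles had 578, 1219 and 2357 CPM in G1/S-high cells and 1074, 1781 and 3487 CPM in G2/M-high cells (-0.56 ± 0.22 SE, edgeR adjusted p = 0.407). AMOT, a Hippo pathway scaffold, had 546, 994 and 1926 CPM in G1/S-high cells and 259, 1139.7 and 2055 CPM in G2/M-high cells (-0.03 ± 0.26 SE, edgeR adjusted p = 0.982). In each of these the ranges of the groups overlapped widely. The adaptor gene IRS4 (0.32), XG (0.62), CPAMD8 (0.66), NORAD (0.31), FTX (-0.38), MIR17HG (-0.48) and RMRP (-0.06) had edgeR adjusted p-values from 0.366 to 0.974. XG and CPAMD8 also varied between the aliquots of pooled material, at 87.2 to 733 CPM and 105 to 1331 CPM. The highest single cell, one of middle score, had 354 CPM of XG, and for CPAMD8 511 CPM. The signs of AMOT and RMRP turned in other settings.

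The libraries of the groups were compared on 6 measures by 2-sided permutation tests of the difference of means with 100000 resamples. Exonic barcodes were 214828 ± 53865 in G1/S-high cells and 243589 ± 54040 in G2/M-high cells (SD, n = 12 each, permutation p = 0.202, adjusted p = 0.781). The intronic share of barcodes was 52.2% ± 9.75 in G1/S-high cells and 54.7% ± 8.50 in G2/M-high cells (SD, permutation test, adjusted p = 0.845). Reads per barcode were 3.30 ± 0.624 in G1/S-high cells and 3.17 ± 0.450 in G2/M-high cells (SD, permutation test, adjusted p = 0.845). The mitochondrial share was 1.69% ± 0.431 in G1/S-high cells and 1.72% ± 0.377 in G2/M-high cells, and genes detected at equal depth were 11582 ± 657 in G1/S-high cells and 11534 ± 382 in G2/M-high cells (SD, permutation tests, adjusted p = 0.886 each). The label numbers of the cells averaged 19.8 ± 11.6 in G1/S-high cells and 14.7 ± 10.0 in G2/M-high cells (SD, permutation test, adjusted p = 0.781). No measure passed, which does not show that they were equal.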

How the data were processed

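MATQ-seq libraries of clone 1 were used, 38 of single cells and 10 of averaged aliquots; 43 further samples were not analysed here. For 57820 Ensembl identifiers a deposited file gives 4 raw counts, of reads and of barcodes, each in exons and in introns. The authors made these counts with TopHat, HTSeq and hg19, per the submitters' processing notes; their versions were not given in the sources used here, nor whether strand was used. A barcode stands for a molecule before amplification, and no count was normalized before deposit. Symbols from GENCODE release 29 and a name table were found for 52338 identifiers, and those without one held 1.59% of exonic barcodes.

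CPM values were computed from exonic barcodes and the score from CPM with a pseudocount of 1. Cells held between 128322 and 326476 exonic barcodes. The lowest chi-square per degree of freedom between the counts of any of 703 pairs of cells was 2.16. Random draws from 1 pool would give about 1 and identical counts still less, so no pair held the same counts. Every cell was kept.

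The groups were compared by the quasi-likelihood F test of edgeR 4.0.16 (R 4.3.3, TMM factors, robust), 2-sided, with Benjamini-Hochberg adjustment over all genes tested. Each SE of a log2 fold change was derived from this test, as the absolute log2 fold change over the square root of F. It is therefore no separate estimate of error. A gene was tested if it averaged 10 CPM or more in the 38 cells. The 20 score genes stayed in the library totals but out of the exonic test. Introns were fitted apart, with their own totals. Both fits were tested on simulated counts. Of 100 exonic genes changed 1.5-fold 9 were recovered at an adjusted p below 0.05, and of 100 changed 2-fold 49. For introns these counts were 1 and 19, so a gene that was not called may still differ. Among unchanged genes 0 of 9759 were called for exons and 1 of 12316 for introns. Library measures were compared by permutation. Alternatives were other scalings, DESeq2 1.42.0, filters, group sizes, scores and terms, and leaving out each cell.

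Named genes were the 20 score genes, the 12 of smallest p among those called in each direction with a mean of at least 20 CPM, the 3 of smallest p in each list, the 5 called introns of smallest p in each direction and all tested genes of the list of nuclear RNAs and variable genes; multi-copy small RNAs, pseudogenes and unnamed identifiers were passed over, and a few genes that the rule names are not reported here. The cells, the score genes and the lists were chosen with earlier results of these data known. Of 466 list entries 431 were found. Promoters were matched by symbol.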

Additional observations from a re-analysis of the deposited data

How the results depend on the processing

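Over 37 other settings 0 of the 64 called exonic genes changed sign. Of them 46 were called in each of the 24 fits that left out 1 cell, and 38 in each of the 13 other settings that tested them. The count of exonic genes higher in G1/S-high cells (23) was 54 with DESeq2, 39 with no filter on low values, 38 with a mean of at least 50 CPM, 47 with 16 cells a group and 63 with a slope on the score over the 38 cells; leaving out 1 cell gave 19 to 30. The count of lower genes (41) was 68 with the slope and 59 with DESeq2, and 31 to 44 with 1 cell left out. The share of higher among all calls thereby moved by over 10 percentage points with DESeq2 (54 higher, 59 lower), the filter of 50 CPM (38 and 38), 16 cells a group (47 and 42) and the slope (63 and 68).

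Intronic counts depended more on the setting. Introns higher in G1/S-high cells (18) were 8 on library totals without TMM factors, 103 with DESeq2, 99 with no filter, 3 with 8 cells a group, 32 with 16, and 34 with the slope. With 1 cell left out they ranged from 8 without cell 13 to 34 without cell 11. They were 9 without cell 7, 10 without cell 29, 11 without cell 9 and without cell 20, and 29 without cell 4 and without cell 36. Introns lower in G1/S-high cells (7) were 32 with DESeq2, 20 with no filter, 4 with a mean of at least 50 CPM, 0 with 8 cells a group, 17 with the slope, 11 with the cell number as a term and 3 at equal depth, and 4 (without cell 13 or without cell 29) to 10 (without cell 36) with 1 cell left out. The cause was not tested. DESeq2 called TK1, DUT, POLD3, DSN1 and JUN, which edgeR did not.

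Signs turned for 3 of the genes named here and for 2 library measures. HIST2H2AB (0.70) was -0.165 with 8 cells a group, where 10 of the 24 histone genes had a positive value. AMOT (-0.03) was 0.0867 with 16 cells a group, 0.0138 with the slope and 0.0825 with a score that weights its genes equally, and -0.130 to 0.0762 with 1 cell left out. RMRP (-0.06) was 0.192 with 16 cells a group, 0.0610 with the slope, 0.0474 with the equally weighted score, 0.107 with the cell number and 0.0866 with the intronic share as a term, and -0.207 to 0.0635 with 1 cell left out. The difference in genes detected at equal depth (48) was -251 with 8 cells a group, -76.2 with the equally weighted score and -102 (without cell 25) to 127 with 1 cell left out. The difference in mitochondrial share (-0.0241 percentage points) was 0.0891 with 8 cells a group, 0.0418 with 16, 0.0454 with the equally weighted score, and -0.0937 to 0.0504 with 1 cell left out.

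No paired analysis was possible because each cell has its own number and both groups were taken from 1 labelled group of cells. The groups are ends of an order, so limits at 12 cells are a choice. Genes below 10 CPM were not tested, and counting error at this depth limits genes near that level.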
